A study of Mus musculus with 12 samples.

Results

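Axin2, Nkd1, Nkd2, Notum, Apcdd1, Sp5, Ccnd1 and Cd44 are genes that β-catenin signalling is known to switch on in many tissues, and several of them feed back on the pathway. They were taken by symbol from the table of normalized counts of mouse cochlear sensory epithelium, 8 of 27754 genes, and all 8 passed the filter on low values that left 18400 genes for testing. Each library was made from both ears of 1 pup of mixed C57BL/6 and CD1 background, in which hair cells and supporting cells had been freed from mesenchyme and neurons with Cell Recovery Solution. Treated pups were Sox2-CreER/+; β-catenin-flox(Exon3)/+, so that tamoxifen removes exon 3 of 1 Ctnnb1 allele and stabilizes β-catenin in cells expressing Sox2. Untreated pups were β-catenin-flox(Exon3)/+ littermates with no Cre, and they too received tamoxifen through the milk. P1 pups got tamoxifen on day 1 and were harvested on day 4, P4 pups on days 4 and 7, in each case 72 h later. The groups were P1 treated with 3 libraries, P1 untreated with 3, P4 treated with 2 (replicates 1 and 3) and P4 untreated with 3. The second P4 treated library was not analysed here. The Cre is knocked into Sox2, so treated and untreated pups also differ by the Cre and by 1 Sox2 allele, and cells without Sox2 cannot recombine.

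In the absence of Wnt ligand, a destruction complex built on Axin and Apc marks β-catenin for degradation. When a ligand engages Frizzled and Lrp receptors, Dishevelled is recruited, the complex is inhibited, and β-catenin enters the nucleus and acts with Tcf/Lef factors on target genes. Many of these targets are brakes, and in the neonatal cochlea the pathway is known for its part in the division of supporting cells.

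Among the brakes, Axin2 is a scaffold of the destruction complex, Nkd1 and Nkd2 bind Dishevelled, Notum is a secreted esterase that strips the lipid from Wnt ligands, and Apcdd1 is a membrane glycoprotein that binds Wnt and Lrp. Sp5 is a zinc finger transcription factor of the Sp family. Ccnd1 encodes cyclin D1, which drives passage through G1, and Cd44 encodes a receptor for hyaluronan at the cell surface.

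In mm10, Axin2 (ENSMUSG00000000142) lies at chr11:108920349-108950783 on the plus strand, Nkd1 (ENSMUSG00000031661) at chr8:88521354-88594884 on the plus strand and Nkd2 (ENSMUSG00000021567) at chr13:73818534-73847631 on the minus strand. Notum (ENSMUSG00000042988) lies at chr11:120653788-120661175 on the minus strand, and Apcdd1 carries the identifier ENSMUSG00000071847. Sp5 (ENSMUSG00000075304) lies at chr2:70474923-70477729 on the plus strand, Ccnd1 (ENSMUSG00000070348) at chr7:144929931-144939925 on the minus strand and Cd44 (ENSMUSG00000005087) at chr2:102811141-102901665 on the minus strand. In the GENCODE annotation of that build, Notum overlaps on the other strand with the antisense genes Notumos (2019 bases) and Myadml2os (3274 bases), Axin2 with the antisense gene Gm11670 (2706 bases, introns included), and Ccnd1 shares 1771 bases with the protein-coding LTO1 on the other strand. Nkd1 holds 2917 bases of the gene model Gm45496 on its own strand. The library kit does not mark strand, so reads from these shared stretches cannot be told apart.

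The promoters of Sp5 and Cd44, which passed the test after treatment at P1, and of Axin2, which did not, are shown as the 250 bases before the RefSeq start (GRCm38.p6, 5′ to 3′ on the gene's strand). They are at chr2:70474673-70474922 on the plus strand for Sp5, chr2:102901666-102901915 on the minus strand for Cd44 and chr11:108920099-108920348 on the plus strand for Axin2. Capitals mark matches to the Tcf/Lef motif, which is CAAAG wherever each of the 2 bases before it is A or T, searched on both strands.
Sp5: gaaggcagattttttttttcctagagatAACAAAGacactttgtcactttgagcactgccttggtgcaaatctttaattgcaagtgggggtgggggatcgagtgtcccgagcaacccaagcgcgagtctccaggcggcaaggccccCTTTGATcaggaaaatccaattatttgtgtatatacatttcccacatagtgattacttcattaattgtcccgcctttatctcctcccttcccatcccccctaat
Cd44: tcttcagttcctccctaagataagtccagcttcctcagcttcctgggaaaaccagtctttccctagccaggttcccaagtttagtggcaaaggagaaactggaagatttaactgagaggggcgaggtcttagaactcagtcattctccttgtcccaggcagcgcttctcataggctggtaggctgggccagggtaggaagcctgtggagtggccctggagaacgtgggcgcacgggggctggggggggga
Axin2: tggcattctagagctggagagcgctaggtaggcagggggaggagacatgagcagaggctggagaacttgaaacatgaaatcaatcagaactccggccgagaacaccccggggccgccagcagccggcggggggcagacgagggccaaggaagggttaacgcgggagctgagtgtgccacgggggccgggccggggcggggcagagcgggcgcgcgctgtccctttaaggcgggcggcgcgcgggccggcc

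The Sp5 promoter held 2 matches, AACAAAG from 222 to 216 bases before the start and, on the other strand, ATCAAAG from 104 to 98 bases before it. Promoters of 5 of the 8 genes were matched, and those of Cd44, Axin2, Nkd1 and Nkd2 held 0 matches, also with the first 50 bases of the gene included. The Nkd1 window, at chr8:88527383-88527632, lies before its RefSeq start but inside the gene as placed above. The bases before the start of that longer span were not searched. Of 32851 mouse promoter windows of 250 bases, 14.8% held at least 1 match and 1.43% at least 2. A match is a run of letters, not a site shown to be bound.

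The comparison of treated with untreated pups asks how these genes responded to stabilized β-catenin at each age. At P1 the answer was split by gene: Sp5 and Cd44 rose, the 5 brakes had fold changes below 1 that did not pass the test, and Ccnd1 was 1.46-fold higher without passing it. Of the 8 genes 2 were called (adjusted p under 0.05 from limma over all tested genes and a change above the fold threshold given with the processing), both higher in treated pups, where 0.353% of all tested genes were called. The median log2 difference was -0.23 over the 8 genes and 0.00 over all tested genes. Libraries of the groups compared did not overlap for the same 2 genes, against 15.3% of all tested genes.

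Sp5 had 3446, 2515 and 3100 normalized counts in P1 treated replicates 1, 2 and 3, and 624, 1072 and 975 in P1 untreated replicates 1, 2 and 3. Every treated library was above every untreated library. Means were 3020 ± 471 (SD, n = 3) and 890 ± 236 (SD, n = 3), and on the log2(normalized count + 1) scale the difference was 1.79 (SE 0.301, 95% interval 1.12 to 2.45, adjusted p = 0.0469), or 3.45-fold. Sp5 was no longer called when P1 treated replicate 2 (adjusted p = 0.0714) or replicate 3 (adjusted p = 0.159) was left out, nor without P1 untreated replicates 1, 2 or 3 (adjusted p = 0.125, 0.0764 and 0.146), with differences of 1.55 to 1.94.

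Cd44 had 7238, 6590 and 7233 normalized counts in P1 treated replicates and 3408, 3929 and 2745 in P1 untreated replicates, in order of replicate number. Treated libraries lay within a narrow band and all above the untreated ones. Means were 7020 ± 373 (SD, n = 3) and 3361 ± 593 (SD, n = 3), a log2 difference of 1.08 (SE 0.136, 95% interval 0.77 to 1.38, adjusted p = 0.0136), or 2.11-fold. Cd44 ranked 14 by p among all tested genes, and it was not called when P1 treated replicate 3 (adjusted p = 0.0623) or P1 untreated replicate 1 (adjusted p = 0.0512) was left out.

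Ccnd1 read 2769, 1557 and 3089 normalized counts in P1 treated and 2036, 1509 and 1387 in P1 untreated libraries. Treated replicate 2 fell among the untreated libraries, so that the groups overlapped. The log2 difference was 0.55 (SE 0.258, adjusted p = 0.434).

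Axin2, the target most often used as a readout of the pathway, had 650, 552 and 488 normalized counts in P1 treated and 606, 970 and 687 in P1 untreated libraries. The groups overlapped, and the log2 difference was -0.40 (SE 0.25, 95% interval -0.96 to 0.15, adjusted p = 0.591). The interval leaves room for a rise of 1.11-fold at most.

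Nkd1 had 10767, 7479 and 7967 normalized counts in P1 treated and 8041, 17574 and 14055 in P1 untreated libraries, and the log2 difference was -0.54 (SE 0.441, adjusted p = 0.712). Nkd2 had 740, 460 and 263 against 936, 602 and 976, and the log2 difference was -0.87 (SE 0.478, adjusted p = 0.523). In both genes 1 treated library lay above the lowest untreated library.

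Notum varied most, with 6303, 967 and 2193 normalized counts in P1 treated and 3412, 13355 and 8904 in P1 untreated libraries. Its highest treated library held 6.52 times the lowest, and the groups overlapped. The log2 difference was -1.64 (SE 0.937, 95% interval -3.72 to 0.44, adjusted p = 0.545). Apcdd1 had 5738, 3976 and 4497 against 4405, 5886 and 4380, and its log2 difference was -0.05 (SE 0.384, 95% interval -0.90 to 0.80, adjusted p = 0.983).

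**Figure D1:**
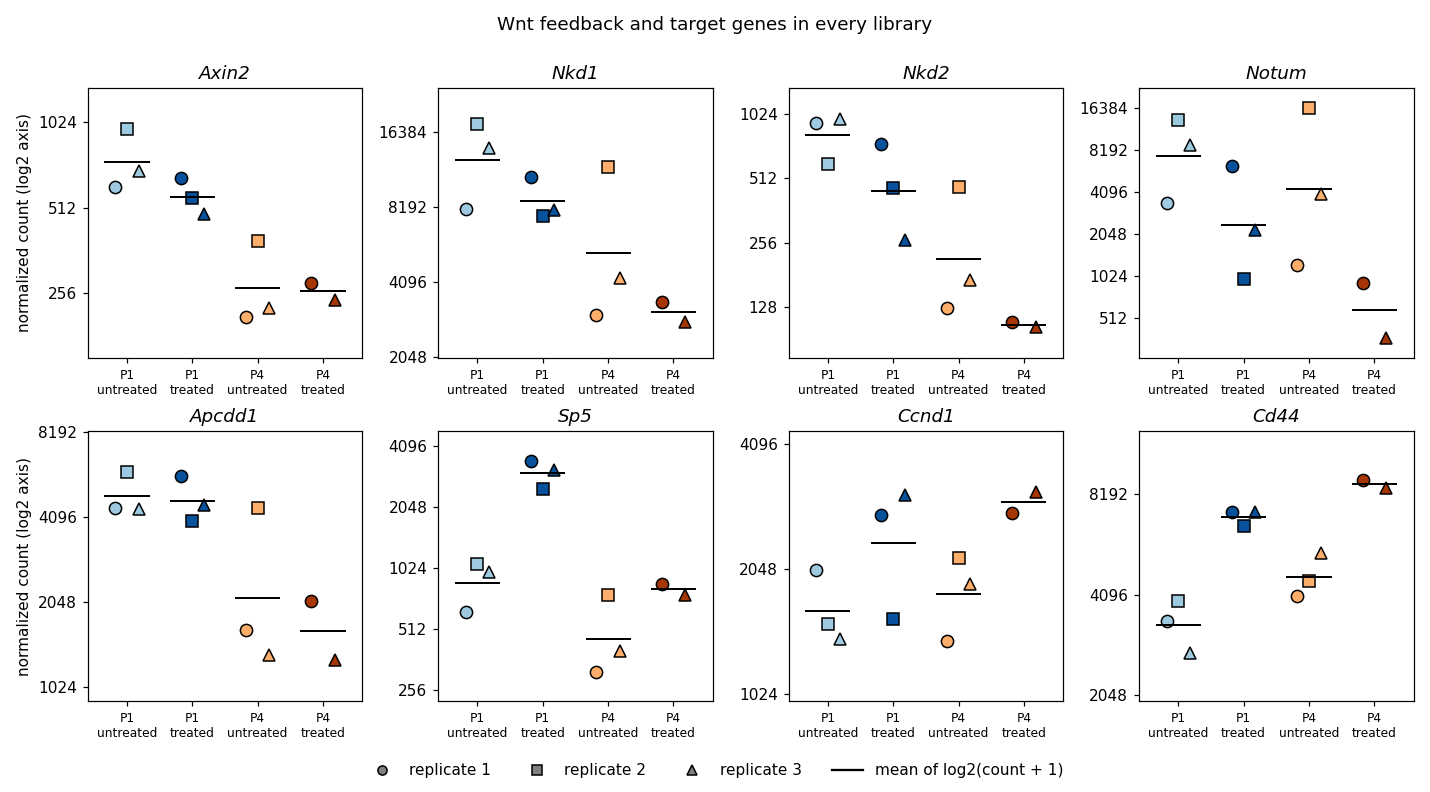
Normalized counts (log2 axis) of the 8 genes in every library, by group on the horizontal axis, with symbols for replicate numbers and a line at the mean of log2(count + 1). Treated points lie above all untreated points at P1 only for Sp5 and Cd44, and P4 untreated replicate 2 (square) is the highest of its group for every gene but Cd44.

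Sex was not balanced between the groups, as read from Xist, the RNA that coats the inactive X of females. Xist was 13 to 26 normalized counts in P1 treated libraries, 16 in P1 untreated replicate 1, 3030 and 2794 in P1 untreated replicates 2 and 3, 3268 and 4180 in P4 treated libraries and 32 to 39 in P4 untreated libraries. Against the P1 untreated library with low Xist alone, all 3 treated libraries were higher in Sp5 (2515 to 3446 against 624) and Cd44 (6590 to 7238 against 3408), whereas they lay on both sides of it in Axin2 (488 to 650 against 606), Nkd1 (7479 to 10767 against 8041), Notum (967 to 6303 against 3412), Apcdd1 (3976 to 5738 against 4405) and Ccnd1 (1557 to 3089 against 2036). All 3 were lower in Nkd2 (263 to 740 against 936). With log2 Xist in the model, neither Sp5 (log2 difference 2.25, adjusted p = 0.143) nor Cd44 (1.07, adjusted p = 0.185) was called at P1. Of all tested genes that model called 7 at P1, against 65 without it. At P4 every treated library was high and every untreated library low in Xist, so that treatment and sex cannot be told apart there by group means.

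At P4, 0 of the 8 genes were called, where 0.0543% of all tested genes were, in a comparison of 2 treated with 3 untreated libraries. At an unadjusted p under 0.05 from limma, 4 of the 8 genes passed, Notum, Sp5, Ccnd1 and Cd44, against 11.6% of all tested genes. Ccnd1 and Cd44 were higher in each treated than in each untreated library and Nkd2 and Notum lower, against 33.5% of all tested genes whose groups did not overlap. The median log2 difference was -0.21 over the 8 genes and 0.00 over all tested genes.

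Cd44 had 9049 and 8556 normalized counts in P4 treated replicates 1 and 3, and 4059, 4518 and 5457 in P4 untreated replicates 1, 2 and 3. The treated libraries stood clear of the untreated ones, with means of 8803 ± 349 (SD, n = 2) and 4678 ± 713 (SD, n = 3). The log2 difference was 0.92 (SE 0.152, 95% interval 0.58 to 1.26, adjusted p = 0.136), which did not pass, and it was called without P4 untreated replicate 3 (1.04, adjusted p = 0.0467).

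Sp5 had 859 and 751 normalized counts in P4 treated and 316, 758 and 402 in P4 untreated libraries. Untreated replicate 2 reached the lower treated library. The log2 difference was 0.81 (SE 0.337, 95% interval 0.06 to 1.55, adjusted p = 0.396). Ccnd1 had 2799 and 3146 against 1377, 2176 and 1884, with no overlap, and its log2 difference was 0.74 (SE 0.288, adjusted p = 0.371).

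Notum had 903 and 369 normalized counts in P4 treated and 1219, 16366 and 3954 in P4 untreated libraries. Both treated libraries were below all untreated ones, which themselves spread over 13.4-fold. The log2 difference was -2.89 (SE 1.05, 95% interval -5.21 to -0.57, adjusted p = 0.339). Nkd2 had 108 and 103 against 126, 466 and 170, also without overlap, and its log2 difference was -1.02 (SE 0.534, adjusted p = 0.491).

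Nkd1 had 3408 and 2832 normalized counts in P4 treated and 3022, 11835 and 4220 in P4 untreated libraries, a log2 difference of -0.78 (SE 0.493, adjusted p = 0.566). Axin2 had 277 and 242 against 211, 389 and 227, a log2 difference of -0.03 (SE 0.28, 95% interval -0.66 to 0.59, adjusted p = 0.978). Apcdd1 had 2063 and 1271 against 1623, 4419 and 1325, a log2 difference of -0.39 (SE 0.429, adjusted p = 0.763). All 3 genes overlapped between groups, and without P4 untreated replicate 2 the differences of Axin2 and Apcdd1 turned to 0.24 and 0.14.

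**Figure D2:**
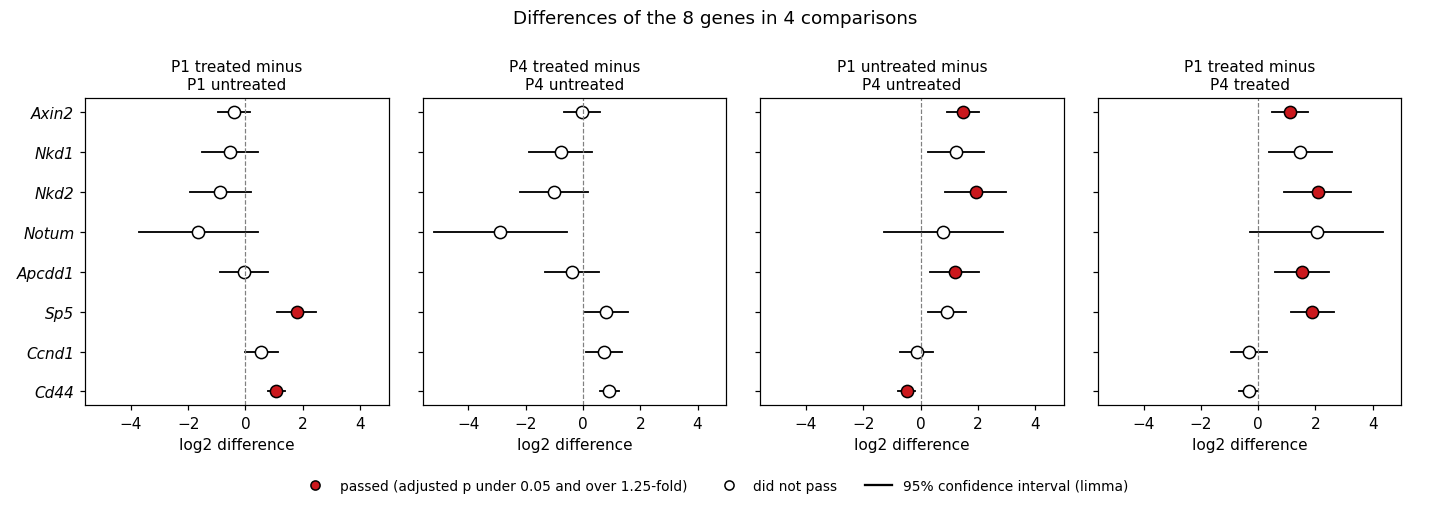
Log2 differences of the 8 genes (points) with 95% confidence intervals from limma (lines) in 4 comparisons, treated minus untreated at P1 and P4, then P1 minus P4 in untreated and in treated pups. Filled points passed the test, 2, 0, 4 and 4 genes from left to right.

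The sign of the difference was the same at both ages in 8 of 8 genes, positive for Sp5, Ccnd1 and Cd44 and negative for the 5 brakes, against 60.1% of all tested genes. For Axin2 and Apcdd1 the sign rests on values close to 0 and turned under quantile normalization at P4 (Axin2), with library weights (Apcdd1 at P1, Axin2 at P4) and under other alternatives. Whether the response itself differed with age was tested by the interaction of treatment and age, in which 0 of the 8 genes were called and 0% of all tested genes, and 0 of the 8 genes and 5.8% of all tested genes had an unadjusted p under 0.05 from limma. For Sp5 the response was larger at P1 by 0.98 on the log2 scale (SE 0.452, 95% interval -0.02 to 1.98, adjusted p = 0.856). For Cd44 the responses differed by 0.15 (SE 0.204, 95% interval -0.30 to 0.61, adjusted p = 0.932). By group mean, treated pups were lower in Xist at P1 and higher at P4, so that sex also enters these signs and the interaction. With log2 Xist in the model the interaction read 2.11 for Sp5, 4.21 for Notum and 0.13 for Cd44, and 0 of the 8 genes were called. In that model the P1 differences of Nkd1 and Apcdd1 were positive, at 0.075 and 0.10.

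The 2 ages were then compared among untreated pups, where no β-catenin was stabilized, and among treated pups. In untreated pups Axin2, Nkd2 and Apcdd1 were higher at P1 and Cd44 was lower, 4 called genes of 8, where 19.9% of all tested genes were called. Libraries did not overlap for Axin2, Nkd2 and Cd44, against 41.3% of all tested genes. In treated pups Axin2, Nkd2, Apcdd1 and Sp5 were higher at P1, again 4 of 8, where 11.1% of all tested genes were called, and libraries did not overlap for 7 of 8 genes, against 43.1% of all tested genes. Xist was low in all P1 treated and high in all P4 treated libraries, so that in treated pups age and sex cannot be told apart, and among untreated pups it was high in 2 P1 libraries only. With log2 Xist in the model, 0 of the 4 genes remained called between treated ages (adjusted p of 0.107 for Sp5, 0.218 for Axin2, 0.34 for Apcdd1 and 0.432 for Nkd2), and between untreated ages only Axin2 did (adjusted p = 0.0364). Over all 18400 tested genes that model called 28 between treated ages, against 2034 without it, and 1807 against 3659 between untreated ages. The median log2 difference, P1 minus P4, was 1.06 in untreated and 1.50 in treated pups over the 8 genes, and 0.02 and 0.00 over all tested genes.

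Axin2 went from 606, 970 and 687 normalized counts in P1 untreated to 211, 389 and 227 in P4 untreated libraries, a log2 difference of 1.48 (SE 0.25, adjusted p = 0.00286), or 2.78-fold. In treated pups it went from 488 to 650 down to 242 and 277, a log2 difference of 1.11 (SE 0.28, adjusted p = 0.0313). Every P1 library was above every P4 library of the same genotype. Between treated pups Axin2 was not called without P1 treated replicate 1 or 2 (adjusted p = 0.0812 and 0.0548) or P4 treated replicate 1 or 3 (adjusted p = 0.115 and 0.191).

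Nkd2 was 3.79-fold higher at P1 in untreated pups (log2 difference 1.92, SE 0.478, adjusted p = 0.0177) and 4.21-fold higher in treated pups (2.07, SE 0.534, adjusted p = 0.0335). Between untreated pups Nkd2 was not called without P1 untreated replicate 1 or 3 (adjusted p = 0.0567 and 0.0624) or P4 untreated replicate 1 or 3 (adjusted p = 0.0616 and 0.0649). Between treated pups it was called only in the fit without P1 treated replicate 3, of the 5 that leave out a library of these groups. Its partner Nkd1 was higher by 1.24 (SE 0.441, adjusted p = 0.0706) and 1.47 (SE 0.493, adjusted p = 0.0824), neither of which passed. Without P4 untreated replicate 2, Nkd1 was called between untreated pups (1.82, adjusted p = 0.00451).

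Apcdd1 was higher at P1 by 1.19 in untreated pups (SE 0.384, adjusted p = 0.0499) and by 1.53 in treated pups (SE 0.429, adjusted p = 0.0452). In the untreated groups P4 replicate 2, at 4419, lay above the lower P1 libraries at 4380 and 4405. Of the 6 fits that leave out an untreated library, Apcdd1 was called only in the one without P4 untreated replicate 2 (adjusted p = 0.00196), and between treated pups in none of 5 (adjusted p = 0.0598 to 0.291). Notum was higher by 0.79 (SE 0.937, adjusted p = 0.59) and 2.04 (SE 1.05, adjusted p = 0.24), and the untreated groups overlapped over most of their range.

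Sp5 was higher at P1 by 1.90 in treated pups (SE 0.337, adjusted p = 0.00807), or 3.73-fold, and by 0.92 in untreated pups (SE 0.301, adjusted p = 0.0533), which missed the threshold. Without P4 untreated replicate 2 the untreated difference was 1.28 and called (adjusted p = 0.00669), and without P1 untreated replicate 1 it was 1.16 and called (adjusted p = 0.0359). The treated difference was not called without P4 treated replicate 3 (adjusted p = 0.077). Its treated P1 libraries, at 2515 to 3446, were above the treated P4 libraries, at 751 and 859.

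Cd44 ran the other way. It was lower at P1 in untreated pups by a log2 difference of -0.48 (SE 0.136, adjusted p = 0.0307), with all 3 P1 libraries, at most 3929, below all 3 P4 libraries, at least 4059. With the replicate number as a block, the adjusted p was 0.0583 and Cd44 was not called. Whether same-numbered libraries of these 2 groups are pairs is not known, as described with the processing. Nor was it called without P1 untreated replicate 1 or 3 (adjusted p = 0.0665 and 0.1) or P4 untreated replicate 2 or 3 (adjusted p = 0.0578 and 0.11). In treated pups the difference was -0.33 (SE 0.152, adjusted p = 0.195). Ccnd1 differed by -0.14 (SE 0.258, adjusted p = 0.75) in untreated and -0.32 (SE 0.288, adjusted p = 0.508) in treated pups, and its libraries overlapped in both.

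Calls between ages also changed when a single library was left out, for these genes and over all tested genes. In untreated pups the number of called genes was 1 without P1 untreated replicate 3 or P4 untreated replicate 3, 2 without P1 untreated replicate 1 or P4 untreated replicate 1, and 5 without P4 untreated replicate 2. In treated pups it was 1 without P1 treated replicate 1 or P1 treated replicate 2. Leaving out a P4 treated library leaves a single library in that group, so those fits are not counted here. Axin2 between untreated pups was called in each fit that left out an untreated library. Over all tested genes, calls between untreated ages fell from 3659 to between 2450 and 3159 in those fits. Between treated ages they went from 2034 to 1404 without P1 treated replicate 1, but to 2043 without P1 treated replicate 2. Since calls over all tested genes fell in most of these fits, a lost call is not read as particular to these genes.

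To compare genes with each other, normalized counts were divided by the length of the merged exons in the GENCODE annotation. That length was 12884 bases for Apcdd1 and from 2100 (Sp5) to 6776 (Cd44) for the others. Merged exons take in every annotated transcript, so that the order of the genes depends on the annotation. Per kb of exon, Notum and Nkd1 had the highest means of the 8 genes in untreated pups, at 3554 ± 2068 and 2901 ± 1058 (SD, n = 3) at P1 and 2982 ± 3352 and 1395 ± 1049 (SD, n = 3) at P4. Their libraries overlapped at both ages, so that their order is not resolved. At P4 both also overlapped Cd44, at 599 to 805, with lowest libraries of 506 for Notum and 663 for Nkd1. Their place above Cd44 is thus not resolved at P4. Axin2 and Nkd2 were the lowest in all 4 groups, with 137 ± 34.7 and 174 ± 42.6 normalized counts per kb (SD, n = 3) in P1 untreated pups, and their libraries overlapped in every group but P4 treated.

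Between these extremes Cd44, Sp5, Apcdd1 and Ccnd1 followed each other in P1 untreated pups, at 496 ± 87.6, 424 ± 112, 380 ± 66.9 and 349 ± 73.3 normalized counts per kb (SD, n = 3), with each overlapping the next. In P1 treated pups Sp5 stood second, at 1438 ± 224 per kb (SD, n = 3), after Nkd1 at 1917 ± 389 and before Notum at 1310 ± 1161, with each overlapping the next, so that the order of the 3 is not resolved. In P4 treated pups Cd44 was first, at 1299 ± 51.5 per kb (SD, n = 2), with no overlap with Nkd1, next at 685 ± 89.4.

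The levels of the 8 genes also differed between libraries of the same group. P4 untreated replicate 2 was the highest of its group for 7 of the 8 genes, where it was the highest for 33.2% of all tested genes. It exceeded both other libraries by more than 2-fold for 4 of the 8 genes, Notum (4.14-fold above the next), Nkd1 (2.80-fold), Nkd2 (2.73-fold) and Apcdd1 (2.72-fold), against 1.7% of all tested genes. It also held the highest Axin2 (1.71-fold above the next) and Sp5 (1.88-fold) of its group. Since the genes were looked at library by library after their values were seen, these counts are a description.

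In P1 treated pups, replicate 1 was the highest for 7 of the 8 genes, against 32% of all tested genes, and replicate 2 the lowest for 6, against 35.8%. In P1 untreated pups, replicate 2 was the highest for 6 genes, against 36.6%, with Nkd2, of which it had the least, and Ccnd1 as exceptions. Of the 2 P4 treated libraries, replicate 1 was higher for 7 genes, against 49%, all but Ccnd1. Cd44 varied least, with its highest library at most 1.43 times the lowest within any group.

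**Figure D3:**
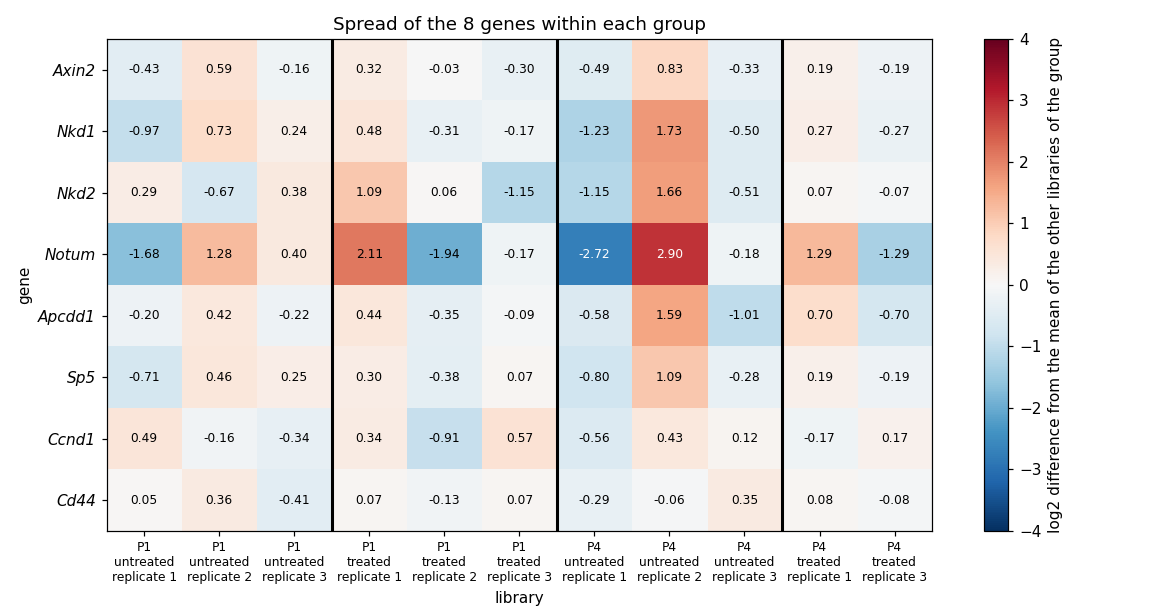
Log2 difference of each library from the mean of the other libraries of its group, for the 8 genes (rows) and 11 libraries (columns, groups set off by lines), as numbers and on a colour scale from blue (lower) to red (higher). P4 untreated replicate 2 reads 2.90 for Notum, 1.73 for Nkd1, 1.66 for Nkd2 and 1.59 for Apcdd1, and -0.06 for Cd44.

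Chosen after the values were seen, ratios of normalized counts within a library set Sp5 and Cd44 against Axin2. Sp5 per Axin2 was 5.30, 4.56 and 6.35 in P1 treated replicates 1 to 3, and 1.03, 1.11 and 1.42 in P1 untreated replicates. In P4 treated libraries it was 3.10 in both, and in P4 untreated libraries 1.50, 1.95 and 1.77. Treated and untreated libraries did not overlap at either age, unlike Sp5 itself at P4, and P4 untreated replicate 2 was the highest of its group by little.

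Cd44 per Axin2 was 11.1, 11.9 and 14.8 in P1 treated and 5.62, 4.05 and 4.00 in P1 untreated libraries, and 32.7 and 35.4 in P4 treated against 19.2, 11.6 and 24.0 in P4 untreated libraries. The groups did not overlap at either age. The mean treated over untreated ratio, averaged on the log2 scale, was 4.56-fold at P1 and 1.79-fold at P4 for Sp5, and 2.79-fold and 1.94-fold for Cd44. For both genes the two-sided exact permutation p was 0.1 at P1 and 0.2 at P4, the smallest that 3 against 3 and 2 against 3 libraries can give, so neither can pass. Nkd1, Apcdd1 and Notum per Axin2 were set out in the same way, 10 comparisons in all, over which the adjusted p of Sp5 and Cd44 was 0.25. At P1 these 3 ratios overlapped between groups, and at P4 Nkd1 and Notum per Axin2 were lower in both treated libraries than in all untreated ones, while Apcdd1 overlapped. Ratios of all tested genes to Axin2 were not counted. Taken singly, 15.3% of all tested genes did not overlap at P1 and 33.5% at P4. The split of Xist at P4 holds for the ratios too, so that treatment and sex cannot be told apart there.

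**Figure D4:**
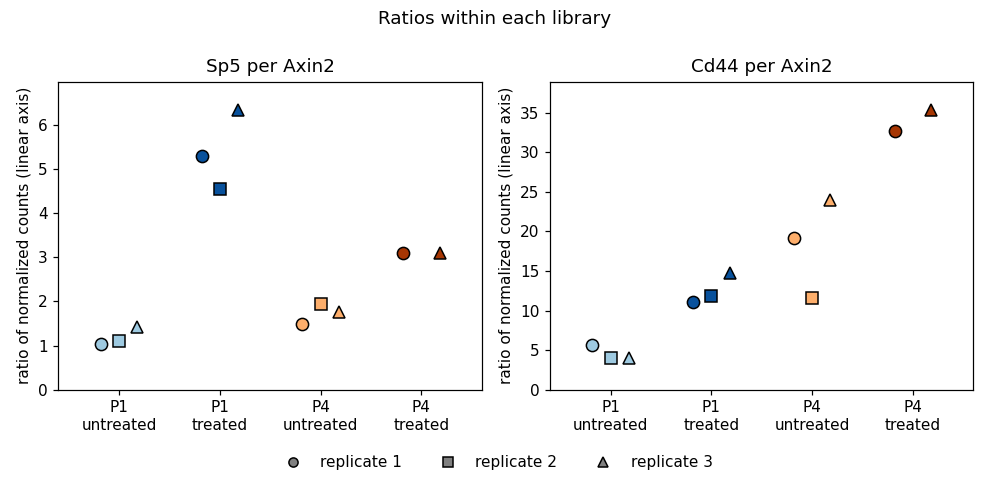
Normalized counts of Sp5 (left) and Cd44 (right) per normalized count of Axin2 in each library (linear axis from 0), by group on the horizontal axis with symbols for replicate numbers. At both ages every treated point lies above every untreated point, at P4 with Sp5 per Axin2 at 3.10 against at most 1.95.

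The genes that followed each of the 8 most closely over all 11 libraries were found among 14933 genes with a mean of at least 50, by the root mean square difference of log2 values centred on each gene's mean. Apcdd1 was nearest to Tcf7, which encodes a Tcf/Lef factor (0.21), and next to Axin2 (0.31), and Axin2 was nearest to Zfand4 (0.21) and Tcf7 (0.22). Nkd1 was nearest to Ptn (0.28) and Pantr1 (0.29), with Apcdd1 ranked 7 and Axin2 ranked 12. For scale, the root mean square of Axin2 itself around its mean was 0.71 and that of Apcdd1 0.81.

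Notum was nearest to Notumos (0.27), the antisense gene that shares bases with it, and then to C1ql1 (0.59). Sp5 had no gene as near, with Ncmap at 0.52 and Edar, a receptor of the ectodysplasin pathway, at 0.54. Nkd2 was nearest to Slc16a9 (0.40) and Icosl (0.42), Ccnd1 to Hist1h2ae (0.20) and Fam19a4 (0.21), and Cd44 to Adarb1 (0.21) and Arhgap33 (0.23). The root mean square of each gene around its own mean was 1.68 for Notum, 1.19 for Nkd2, 1.08 for Sp5, 0.55 for Cd44 and 0.44 for Ccnd1. Distances were not scaled by it, so that they tend to be smaller for genes that vary little. All libraries share the 4 groups, so that a difference between ages alone brings genes near to each other.

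The other genes of the pathway were counted in lists. Of 36 other Wnt targets 32 were tested, and at P1 2 were higher in treated pups, Lgr5, which encodes an R-spondin receptor (9011 ± 279 against 2494 ± 393 normalized counts, SD, n = 3 each, log2 difference 1.87, SE 0.143, adjusted p = 0.00087), and Tnfrsf19, a receptor of the TNF family (0.75, SE 0.107, adjusted p = 0.0248), 0 were lower and 30 did not pass. At P4 0 of 32 passed, with Lgr5 at a log2 difference of 1.08 (SE 0.16, adjusted p = 0.0697). Median log2 differences of this list were 0.09 at both ages, where those of all tested genes were 0.00.

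Of the partners of the feedback genes, 0 of 15 genes of the destruction complex, 0 of 10 Dishevelled proteins and their binding partners and 0 of 11 genes of Wnt secretion and lipid handling were called in either comparison of treatment. Among 15 Wnt receptors and co-receptors only Fzd2 was called, lower in P1 treated pups (log2 difference -0.58, SE 0.0951, adjusted p = 0.0413). The families around the other members gave 0 of 6 Sp-related factors, 0 of 18 D cyclins, their kinases and Rb genes, and 0 of 18 hyaluronan and CD44 ligand genes at each age. Counts at an unadjusted p under 0.05 from limma ran from 0 to 4 genes per list in these 6 families, against 12.2% of all tested genes at P1 and 11.6% at P4.

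The member of each of these lists with the largest test statistic did not pass either. At P1 these were Siah1a, a ubiquitin ligase (log2 difference 0.28, adjusted p = 0.192), Dixdc1, which binds Dishevelled and Axin (0.53, adjusted p = 0.32), Gpc1, a glypican (0.19, adjusted p = 0.5), Sp7 (-1.78, adjusted p = 0.161), Cdkn1a, an inhibitor of the cell cycle (1.16, adjusted p = 0.0829), and Msn, which links CD44 to actin (-1.41, adjusted p = 0.161). At P4 they were Siah1a (0.31, adjusted p = 0.285), Dixdc1 (0.68, adjusted p = 0.311), Gpc1 (0.43, adjusted p = 0.272), Sp1 (0.72, adjusted p = 0.265), Cdk6 (0.49, adjusted p = 0.367) and Has3, a hyaluronan synthase (-1.96, adjusted p = 0.365), and among the receptors Fzd6 (0.55, adjusted p = 0.265). In the interaction 0 genes of these 8 lists were called. The leading gene of each was Lgr5 (0.79, adjusted p = 0.82), Csnk1e (0.21, adjusted p = 0.869), Dact2 (0.62, adjusted p = 0.863), Gpc5 (-0.68, adjusted p = 0.82), Ror2 (0.83, adjusted p = 0.82), Sp1 (-1.35, adjusted p = 0.585), Cdkn1a (1.38, adjusted p = 0.768) and Hmmr (0.89, adjusted p = 0.877).

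Between untreated pups of the 2 ages, where 19.9% of all tested genes were called, the same lists are given as counts from which nothing particular to them is read. Of 32 other Wnt targets 10 were higher and 4 lower at P1, of 11 Wnt secretion genes 4 were higher and 1 lower, of 15 Wnt receptors 3 were higher and 1 lower, of 6 Sp-related factors 1 was higher, and of 18 hyaluronan and CD44 ligand genes 4 were higher. Of 15 genes of the destruction complex 2 were lower at P1, Apc, the scaffold that partners Axin (log2 difference -1.27, SE 0.17, adjusted p = 0.000884), and Csnk1e, a casein kinase (-0.46, SE 0.0895, adjusted p = 0.00543). Of 10 Dishevelled proteins and partners 2 were higher, Dact1 (1.14, SE 0.163, adjusted p = 0.00124) and Dixdc1 (0.63, SE 0.2, adjusted p = 0.0474). Among 18 cyclin genes Cdkn1a was lower at P1 (-1.83, SE 0.231, adjusted p = 0.000663), and in all 1 was higher and 3 lower. The genes named for this comparison were chosen after their values were seen.

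Libraries summed to between 41.2 and 44.2 M normalized counts, no 2 libraries were identical, and the markers of hair cells (14) and of supporting cells (13) were above 0 in every library. Ctnnb1 changed in total by 0.16 and 0.13 on the log2 scale at P1 and P4, not called, and Sox2 differed by -0.67 at P1 (adjusted p = 0.03, called) and -0.41 at P4 (adjusted p = 0.272). Among the 13 supporting cell markers, of which Sox2 is 1, Gjb2 (log2 difference 0.88, adjusted p = 0.0209) and Gjb6 (0.65, adjusted p = 0.0373), connexins of supporting cells, were called higher in P1 treated pups, and 5 were higher at an unadjusted p under 0.05. The median of that list was 0.28 at P1 and 0.22 at P4, with 0 called at P4. In the same P1 libraries 9 immune cell markers summed to 1435 to 2879 normalized counts in treated and 3146 to 4216 in untreated pups, with 8 of 9 lower at an unadjusted p under 0.05 and 0 called. Of all tested genes 12.2% at P1 and 11.6% at P4 had an unadjusted p under 0.05 from limma, both directions together. The 6 endothelium markers summed to 1233 to 2970 against 5587 to 7935 at P1, and 708 to 828 against 1166 to 4560 at P4, with 0 called, and 1 of them was at 0 in P1 untreated replicate 2. Emcn made up much of the P1 sums, with means of 1115 against 6102. The mean log2 level of the 6 overlapped at P1, at 6.07 to 7.41 against 6.46 to 7.92. At P4 it did not, at 5.63 and 6.05 against 6.58 to 6.83. At each age 2 of the 6 were lower at an unadjusted p under 0.05 from limma. The 10 mesenchyme markers summed to 133831 to 209413 in P1 treated and 145508 to 166362 in P1 untreated pups, with 1 called higher (Lum, which makes up much of the sum) and 5 lower at an unadjusted p under 0.05. Their median log2 difference was -0.98 at P1 and -0.77 at P4, and at P4 their mean log2 level was 10.8 and 11.4 in the treated and 11.8 to 12.0 in the untreated libraries, with no overlap. None of the 10 was called at P4, where by limma's unadjusted p under 0.05 there were 2 below and 1 above. In P4 untreated replicate 2, where the brakes were high, endothelium markers summed to 4560 against 1166 and 1739 in the other 2 libraries, and the 7 stria vascularis markers to 3647 against 1840 and 1892. By mean log2 level that library was not the highest for either list. It read 6.68 against 6.58 and 6.83 for endothelium, and 5.70 against 6.60 and 5.63 for stria vascularis. For mesenchyme it was the highest by mean log2 level, at 12.02 against 11.78 and 11.84, but not by sum (193270 against 188022 and 206418). Mesenchyme was also highest by mean log2 level in P1 treated replicate 1 (12.4 against 11.2 and 10.9) and P4 treated replicate 1 (11.4 against 10.8). In P1 untreated replicate 2 it was not (12.4 against 12.2 and 12.5). In P1 treated replicate 2, the lowest library for 6 of the 8 genes, the stria vascularis markers summed to 4114 against 1509 and 1057. The part of these cell types in the values of the 8 genes was not tested, and in bulk tissue fewer cells of a type and less RNA per cell cannot be told apart.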

How the data were processed

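RNA of cochlear sensory epithelium was sequenced from single pups, 1 library each, so replicates are separate animals. Per the labels and the study's methods, the authors used STAR 2.5.2b on mm10 for alignment, featureCounts to check quality, Sailfish and tximport for counts of genes, and DESeq2 to test. They deposited a score per gene, normalized counts rounded to whole numbers. Whether these derive from featureCounts or Sailfish is not stated. Depth before scaling is not in the values, so they allow no counting interval. Of 12 libraries 11 had a column.

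The table had 27755 entries, and 1 with a repeated ID was dropped. Values were tested as log2(normalized count + 1), which understates changes of low genes, in R 4.3.3 with limma 3.58.1, using 4 group means, a spread shared by all libraries and its trend with level (eBayes). Genes with a mean of at least 10 were tested (18400), and p-values were adjusted by Benjamini and Hochberg over all of them. Calls needed an adjusted p under 0.05 together with a change over 1.25-fold. The fit was tested on simulated data.

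The 8 genes and all lists were chosen with earlier results of these data known, so list counts are descriptions and no list was tested. Named are the 8 genes throughout, Ctnnb1, Sox2 and Xist, the 2 nearest genes of each member, and for each list up to 4 called genes with the smallest adjusted p. Where none was called in a comparison of treatment or the interaction, the gene with the largest test statistic is named.

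Pairing of same-numbered libraries was checked by correlating their deviations from group means. The correlations were 0.1351, 0.1362 and 0.1149 for untreated pups of the 2 ages, and 0.026 or less elsewhere. The labels give no pairing, and the correlations alone do not show one. Promoters are from RefSeq (GRCm38.p6), positions and exon lengths from GENCODE on the same build. Alternatives were a pseudocount of 8, no filter or a minimum of 50, no variance trend, only the groups compared, 2 other scalings, the replicate block, log2 Xist as a covariate, calls at an adjusted p under 0.1 or without the fold threshold, each library left out and, chosen after seeing the data, library weights.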

Additional observations from a re-analysis of the deposited data

How the results depend on the processing

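The number of the 8 genes called between P1 treated and P1 untreated pups, 2, was 1 with no filter on low values or with the replicate block, 0 without the variance trend, with only the groups compared or with log2 Xist as a covariate, and 0 to 2 with each library left out. At P4 it was 0, and 1 (Cd44) with library weights, and 0 to 1 with each library left out. Between untreated ages it was 4, then 2 without the variance trend or with only the groups compared, 1 with log2 Xist, 6 with library weights or at an adjusted p under 0.1, 5 at a mean of at least 50, and 1 to 5 with each library left out. Between treated ages it was 4, then 1 without the variance trend, 2 with the replicate block, 0 with log2 Xist, 5 with only the groups compared or at an adjusted p under 0.1, and 0 to 3 with each library left out. The interaction stayed at 0 in every fit run, and it has no fit with only the groups compared. Calls over all tested genes moved too. At P1 they went from 65 to 40 with no filter, 32 with the block and 12 without the trend. They were 10 with only the groups compared, 7 with log2 Xist and 11 to 371 with a library left out. Between untreated ages 3659 became 3248 without the trend, 3598 with only the groups compared and 1807 with log2 Xist. Between treated ages 2034 became 1523, 869 and 28 in the same order, and 1326 with the block. The causes were not tested. Untreated libraries of the 2 ages with the same replicate number had weakly correlated deviations (0.1149 to 0.1362), which does not show that they were paired. There the block left 3 of 4 calls. Elsewhere the correlations were 0.026 or less, and the block cost the calls of Sp5 at P1 (adjusted p = 0.0736) and of Nkd2 and Apcdd1 between treated ages (adjusted p = 0.0784 and 0.0755).

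Signs turned only in differences that were not called. For treatment at P4, Axin2 read 0.046 with quantile normalization, 0.12 with the block and 0.048 with library weights, and -0.20 to 0.24 with each library left out, and Apcdd1 -0.74 to 0.14. At P1, Apcdd1 read 0.10 with log2 Xist, 0.021 with library weights and -0.20 to 0.092 with each library left out, and Nkd1 0.075 with log2 Xist. Between untreated ages with log2 Xist, Notum read -0.22 and Ccnd1 0.07, and with each library left out -0.12 to 1.75 and -0.32 to 0.009. In the interaction Nkd1 read -0.005 with the block and Axin2 0.30 and Nkd2 -0.29 with log2 Xist, Nkd2 -0.044 with library weights, and with each library left out the ranges were -0.34 to 0.64 for Nkd1, -0.40 to 0.54 for Nkd2, -0.19 to 0.69 for Apcdd1 and -0.38 to 0.11 for Ccnd1. Of 656 values of single genes under the alternatives, 558 kept their direction and their side of the threshold, 62 lost a call, 9 gained one and 27 changed sign. Only genes called in the main fit could lose a call, 2 at P1, 4 between untreated and 4 between treated ages. The 656 also hold the values of genes that were not called there, so the 62 are not a share of 656.

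Limits are the 2 P4 treated libraries, the uneven split of Xist, and values already scaled, from which the depth of each library cannot be read.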
